A study of Mus musculus with 6 samples.

Results

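Chemokines and their receptors were examined in the vestibular epithelium of mice after chronic exposure to 3,3'-iminodipropionitrile (IDPN). This nitrile damages hair cells (HCs), the sensory receptors for balance and hearing. Members were the protein-coding genes whose symbols mark them as CC, CXC, CX3C or XC ligands, as their receptors, or as atypical chemokine receptors. The table held 68 such genes out of 52636, with 62 distinct symbols. Of the 68, 44 encoded ligands and 24 receptors. The rule reads symbols only and uses no measured value.

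RNA-seq was done on 3 Control and 3 IDPN animals, all male 129S1/SvImJ mice that were 2 to 4 months old at the start and came from a locally bred colony. The IDPN animals took 30 mM IDPN in their drinking water for 8 weeks, and the Control animals drank plain water. Each library was 1 animal, with its 2 utricles and 6 cristae pooled, so the spread between libraries is that between animals. In the sample titles the 3 Control animals share a code stem that no IDPN animal has, and anything this stem marks cannot be told apart from IDPN. IDPN 2 and IDPN 3 share another stem, which IDPN 1 does not have. Whether a stem marks a litter or a cage is not stated, so animals with the same stem may not be independent.

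Chemokines are small secreted proteins that direct the migration of leukocytes and other cells along gradients, by binding G protein-coupled receptors. Some are made constantly and hold cells in place within a tissue, such as CXCL12 acting through CXCR4. Others, such as CCL2 and its relatives, are made on demand and recruit monocytes. Atypical receptors bind chemokines and remove them without classical G protein signalling. The inner ear holds resident macrophages that carry CX3CR1, whose ligand CX3CL1 (fractalkine) is made by neurons and epithelia.

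Among the ligands, Cxcl12 was 3.62-fold and Cxcl14 1.85-fold lower in IDPN. Ccl12 was 4.83-fold and Ccl9 5.37-fold higher, but Ccl9 did not pass in edgeR (adjusted p 0.0900). No receptor gene was called in either direction by DESeq2 or edgeR, and 2 (Ccr1 and Xcr1) had an unadjusted p under 0.05 in both, each higher in IDPN. The call needed a fold change above 1.5 and a DESeq2 p, adjusted after Benjamini-Hochberg (Padj), under 0.05. In each direction 2 members were called. Over the 17650 genes with a Padj, 2.32% were called higher and 3.42% lower, and 28 members had a Padj. The edgeR quasi-likelihood test called 1 member higher and 2 lower, beside 1.02% and 2.19% of the 16310 genes it tested.

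Upstream sequence is shown for the 4 called ligands and for Cxcl10, the ligand with the largest estimate. Each is the 250 bases before the RefSeq start on the gene's own strand (GRCm38.p6), written 5′ to 3′. Capitals mark a match on either strand to 1 of 5 motifs, spelled GGANNTTCC for NF-kB, TTTCNNTTT for ISRE, TTCNNNGAA for GAS, TGANTCA for AP-1 and TGACGTCA for CRE. Each spelling takes in only some forms of its site, so lower case does not show that a site is absent. NF-kB and AP-1 are inflammatory and stress factors, ISRE and GAS are elements bound by interferon-activated factors, and CRE is bound by CREB and ATF factors. Ccl12 and Ccl9 lie at chr11:82101595-82101844 (plus strand) and chr11:83578637-83578886 (minus strand). Cxcl10 lies at chr5:92348890-92349139 (minus strand). Cxcl12 and Cxcl14 lie at chr6:117168285-117168534 (plus strand) and chr13:56296552-56296801 (minus strand).
Ccl12: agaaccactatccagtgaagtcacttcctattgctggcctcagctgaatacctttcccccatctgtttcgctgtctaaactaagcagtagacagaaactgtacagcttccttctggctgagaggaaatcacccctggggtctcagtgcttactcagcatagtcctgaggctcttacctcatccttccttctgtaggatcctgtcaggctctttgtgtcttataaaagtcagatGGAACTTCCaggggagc
Ccl9: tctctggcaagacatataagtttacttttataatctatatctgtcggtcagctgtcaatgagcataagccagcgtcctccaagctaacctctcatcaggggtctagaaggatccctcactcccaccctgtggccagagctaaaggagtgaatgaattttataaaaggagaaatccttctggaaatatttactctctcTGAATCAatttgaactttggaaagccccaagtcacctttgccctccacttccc
Cxcl10: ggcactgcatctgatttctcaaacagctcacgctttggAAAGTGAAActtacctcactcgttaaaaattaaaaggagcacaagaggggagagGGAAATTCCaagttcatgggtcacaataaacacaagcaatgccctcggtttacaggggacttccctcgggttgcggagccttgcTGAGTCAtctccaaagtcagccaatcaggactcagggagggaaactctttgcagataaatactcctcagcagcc
Cxcl12: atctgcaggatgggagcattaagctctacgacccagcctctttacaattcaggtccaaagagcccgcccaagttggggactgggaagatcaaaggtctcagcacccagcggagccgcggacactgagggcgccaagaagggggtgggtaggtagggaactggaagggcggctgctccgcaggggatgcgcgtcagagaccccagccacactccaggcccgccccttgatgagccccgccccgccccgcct
Cxcl14: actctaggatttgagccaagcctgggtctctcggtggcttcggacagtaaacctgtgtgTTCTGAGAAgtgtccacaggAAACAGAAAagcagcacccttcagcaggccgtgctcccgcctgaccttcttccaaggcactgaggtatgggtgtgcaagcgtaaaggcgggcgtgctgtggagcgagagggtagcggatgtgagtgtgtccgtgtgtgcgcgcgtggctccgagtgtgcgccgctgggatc
In the Ccl12 promoter the NF-kB letters began at −17 from the start, and the Ccl9 promoter had the AP-1 letters at −53. The Cxcl10 promoter held ISRE at −212, NF-kB at −158 and AP-1 at −74. Cxcl14 held GAS at −191 and ISRE at −171, and Cxcl12 held none of the 5. No match overlapped another in these sequences. Whether any of these letters bear on the change of a gene was not tested.

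RefSeq promoters were found for 47 of the 62 symbols, as 56 distinct windows that ran from 250 bases before to 50 bases after the start. The NF-kB letters were in 8 of the 56 (14.3%), against 4.26% of all 32817 promoters. The AP-1 letters were in 10 (17.9%, against 7.81%). ISRE letters were in 6 (10.7%, against 10.5%), GAS letters in 4 (7.14%, against 8.29%), and CRE letters in none (0%, against 1.79%). These shares describe the letters in the windows, and several members are neighbours or near copies of each other. Of the 22 members measured well enough to be described singly, 18 had a promoter, in 23 windows. The NF-kB letters were in 3 of these windows (Ccl12, Ccrl2 and Cxcl10). ISRE and AP-1 letters were in 3 each, GAS letters in 1 and CRE letters in 0.

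Depth was even, with 40474847 to 43566332 estimated counts per library and size factors of 0.825 to 1.21. Many members were hardly measured. In all 6 libraries 19 of the 68 stood at 0, which at this depth allows up to 0.0689 to 0.0741 CPM (a count scaled by the library's total) in a library, the level of 3 counts. These limits cover counting error only. Among ligands the genes at 0 were Ccl1, Ccl20, Ccl26, Ccl27b, Ccl21c, Cxcl3, Cxcl15, Xcl1, 3 copies of Ccl21b and second copies of Ccl19 and Ccl21a. Among receptors they were Ackr2, Ccr1l1, Ccr3, Ccr4, Ccr8 and Cxcr1. A further 27 had counts but did not reach 10 counts in 3 libraries, and none of these exceeded 23.1 normalised counts in any library. That left 22 members, 12 ligands and 10 receptors.

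**Figure D1:**
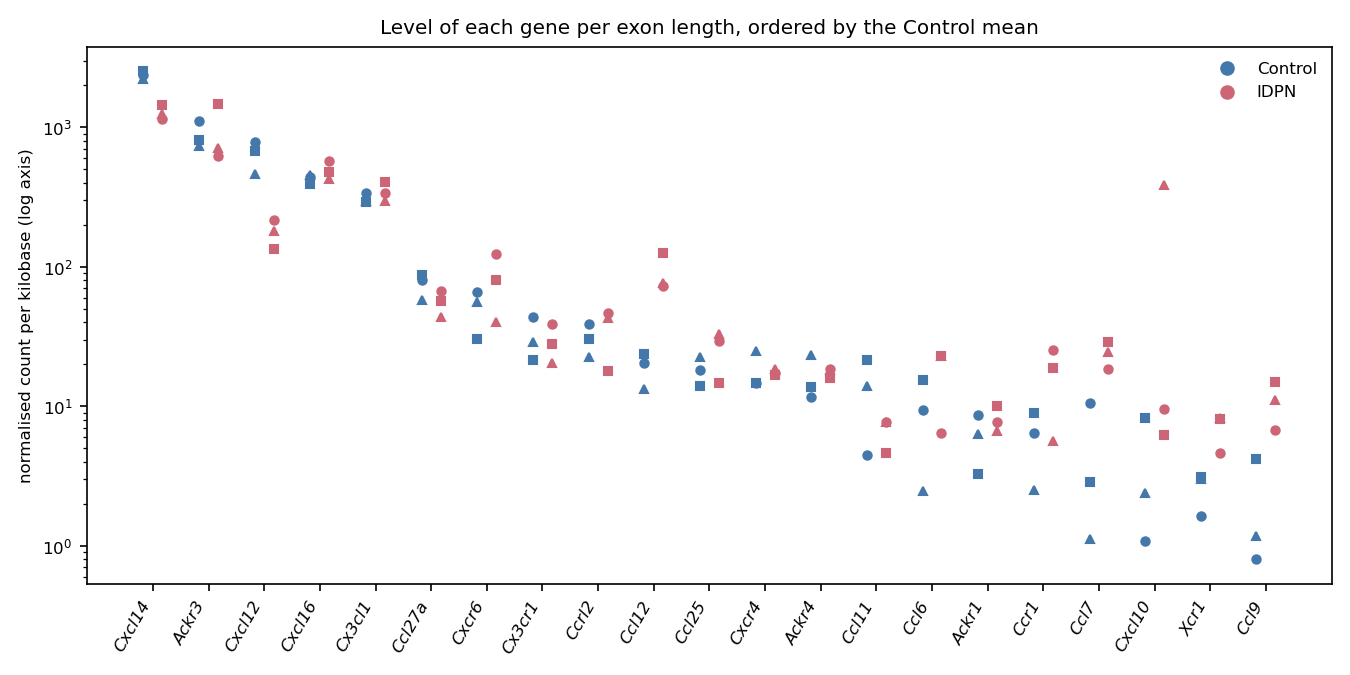
Normalised counts per kilobase of exon (log axis) of 21 genes that reached 10 counts in 3 libraries, ordered by the Control mean, with blue for Control, red for IDPN and circle, square and triangle for libraries 1, 2 and 3 of a group. Cxcl14 stood highest in both groups, the 5 genes from Cxcl14 to Cx3cl1 lay well above the rest in Control, and the red triangle of Cxcl10 was IDPN 3.

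Per kilobase of exon, the chemokine system of the Control epithelium was dominated by a few ligands and 1 atypical receptor. Cxcl14, a ligand of epithelia whose receptor is debated, had the highest level, with 2372 ± 149 normalised counts per kilobase (SD, n = 3). It was followed by Ackr3, the scavenging receptor of CXCL12, at 881 ± 196, and by Cxcl12 itself at 641 ± 162 (SD, n = 3 each). The libraries of Ackr3 and Cxcl12 overlapped, so their order is not settled. Cxcl16, a membrane-bound ligand of CXCR6, stood at 429 ± 30.4 and Cx3cl1 at 309 ± 24.4 (SD, n = 3 each). Each of Cxcl14, Cxcl12, Cxcl16 and Cx3cl1 was separate from the next gene in every Control library. Below them came Ccl27a at 75.3 ± 15.4 and Cxcr6 at 50.9 ± 18.3 (SD, n = 3 each), and from Ccl27a downwards neighbours in the order were not separate. In IDPN, Cxcl12 stood at 177 ± 41.9 per kilobase and moved from rank 3 to rank 5. Ccl12 moved from rank 10, at 19.1 ± 5.31, to rank 7, at 91.4 ± 29.4 (SD, n = 3 each).

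Summed over all ligands, the level per kilobase was 4105, 4089 and 3567 in Control 1 to 3 against 2536, 2815 and 2809 in IDPN 1 to 3. The groups did not overlap. Cxcl14 made up 60.6% ± 2.51 of that sum in Control against 47.1% ± 3.91 in IDPN (SD, n = 3 each). The share of Cxcl12 was 16.2% ± 3.05 in Control against 6.57% ± 1.92 in IDPN. Cxcl16 and Cx3cl1, whose own levels did not pass the test, had shares of 11.0% ± 1.57 and 7.91% ± 0.627 in Control, against 18.3% ± 3.82 and 12.8% ± 1.99 in IDPN (SD, n = 3 each). These shares add up to a fixed total, so a lower share of Cxcl14 raises the others.

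**Figure D2:**
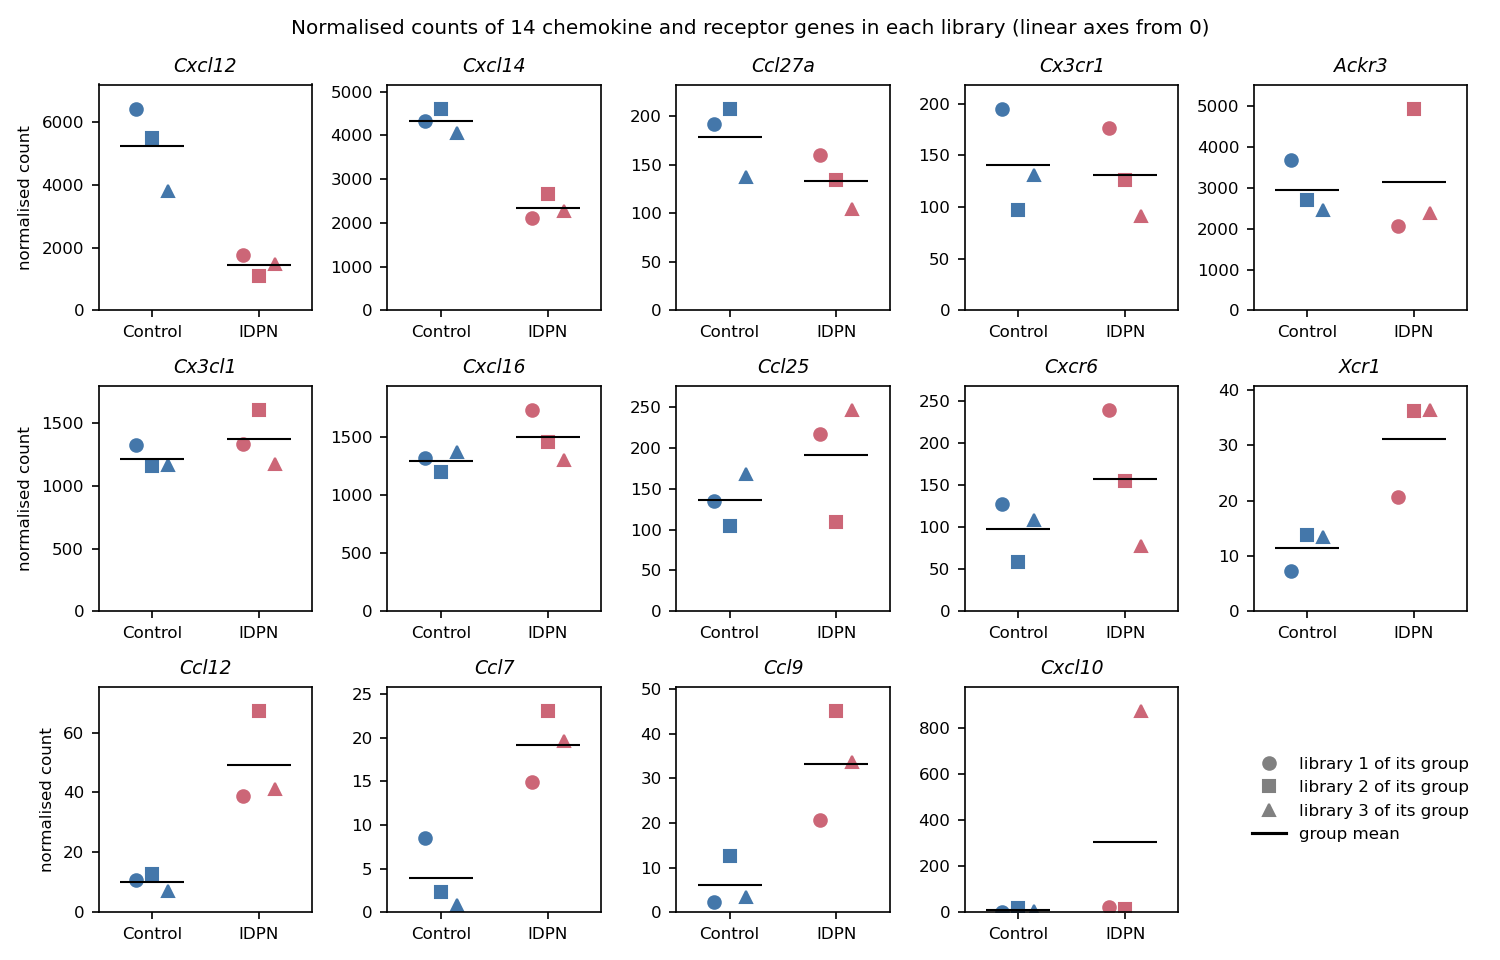
Normalised counts (linear axes from 0) of the 14 genes described in full, with circle, square and triangle for libraries 1, 2 and 3 of a group and a line at the group mean. No IDPN library reached any Control library in Cxcl12 and Cxcl14, the reverse held for Ccl12, Ccl9, Ccl7 and Xcr1, and the Cxcl10 mean of the IDPN group was set by IDPN 3.

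Cxcl12 (ENSMUSG00000061353.11, chr6:117168535-117181367, GRCm38) encodes the ligand that retains leukocytes and progenitors in tissues. Its normalised counts were 6418, 5496 and 3803 in Control 1 to 3 against 1778, 1093 and 1465 in IDPN 1 to 3. The lowest Control animal had more than every IDPN animal. The log2-fold change was −1.86 (SE 0.23, DESeq2 Padj = 7.34e-14), and the edgeR adjusted p was 0.00315. It kept its call when any 1 library was left out, with estimates of −2.04 to −1.69.

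Its receptor genes did not pass the test. Cxcr4, the signalling receptor, had 26.7, 26.5 and 45.4 normalised counts in Control 1 to 3 against 31.4, 30.1 and 33.6 in IDPN 1 to 3, with a log2-fold change of −0.06 (SE 0.49, DESeq2 Padj = 0.975). Ackr3 had 3692, 2708 and 2447 in Control 1 to 3 against 2074, 4937 and 2392 in IDPN 1 to 3. IDPN 2 held the highest value and IDPN 1 the lowest, so the groups overlapped. The log2-fold change was 0.09 (SE 0.28, DESeq2 Padj = 0.933), and without IDPN 2 it was −0.40.

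Cxcl14 (ENSMUSG00000021508.11, chr13:56288643-56296551) had 4330, 4609 and 4065 normalised counts in Control 1 to 3 against 2110, 2652 and 2271 in IDPN 1 to 3. The groups were far apart and each was tight. Its log2-fold change was −0.89 (SE 0.16, DESeq2 Padj = 2.07e-06), with an edgeR adjusted p of 0.00951. The call held without each library, at −0.98 to −0.81.

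Total-count scaling moved the median of all genes by 0.25 on the log2 scale, so all these changes are relative to the typical gene. Under that scaling Cxcl12 was still called at −1.54 (DESeq2 Padj = 8.17e-07) and Cxcl14 at −0.64 (DESeq2 Padj = 0.0252). In bulk tissue, fewer cells of a type and less RNA per cell cannot be told apart.

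Cell type markers also differed in level. Of 15 HC markers 8 were downregulated, among them Ocm (oncomodulin, −1.98 on the log2 scale) and Gfi1, an HC transcription factor (−1.21). The list median was −0.70, and its summed counts were 792339 to 1040290 in Control and 582535 to 784350 in IDPN. Spp1 (osteopontin), which was not called (log2-fold change −0.53, DESeq2 Padj = 0.0502), made 95.8% to 97.3% of this sum in a library. The other 14 HC markers summed to 30088 to 34014 in Control and 21059 to 21493 in IDPN, again without overlap. Of 12 supporting cell markers 1, Gjb6 (connexin 30, −0.94), was downregulated, with a list median of −0.37 and sums of 304221 to 434614 and 206087 to 262661. Among the 10 endothelial markers 1, the VEGF receptor Kdr (−1.14), was downregulated. The endothelial median was −0.01, and sums were 8439 to 13683 in Control and 8221 to 12371 in IDPN. All markers of these 3 lists had counts. The part of these cells in the lower Cxcl12 and Cxcl14 was not tested.

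Stromal cells are a known source of CXCL12 in other tissues. Of 10 stromal markers 2 were called, both higher, namely Postn (periostin, 1.53, DESeq2 Padj = 0.0298) and Ogn (0.63, DESeq2 Padj = 0.0265). The stromal median was 0.34 and its sums were 24784 to 45328 in Control and 44561 to 45732 in IDPN. Dcn made 59.2% to 70.0% of this sum in a library. The other 9 stromal markers summed to 10110 to 14054 in Control and 13378 to 16256 in IDPN, so the groups overlapped. The edgeR adjusted p was 0.144 for Postn and 0.115 for Ogn. The part of stromal cells in the lower Cxcl12 was not tested.

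**Figure D3:**
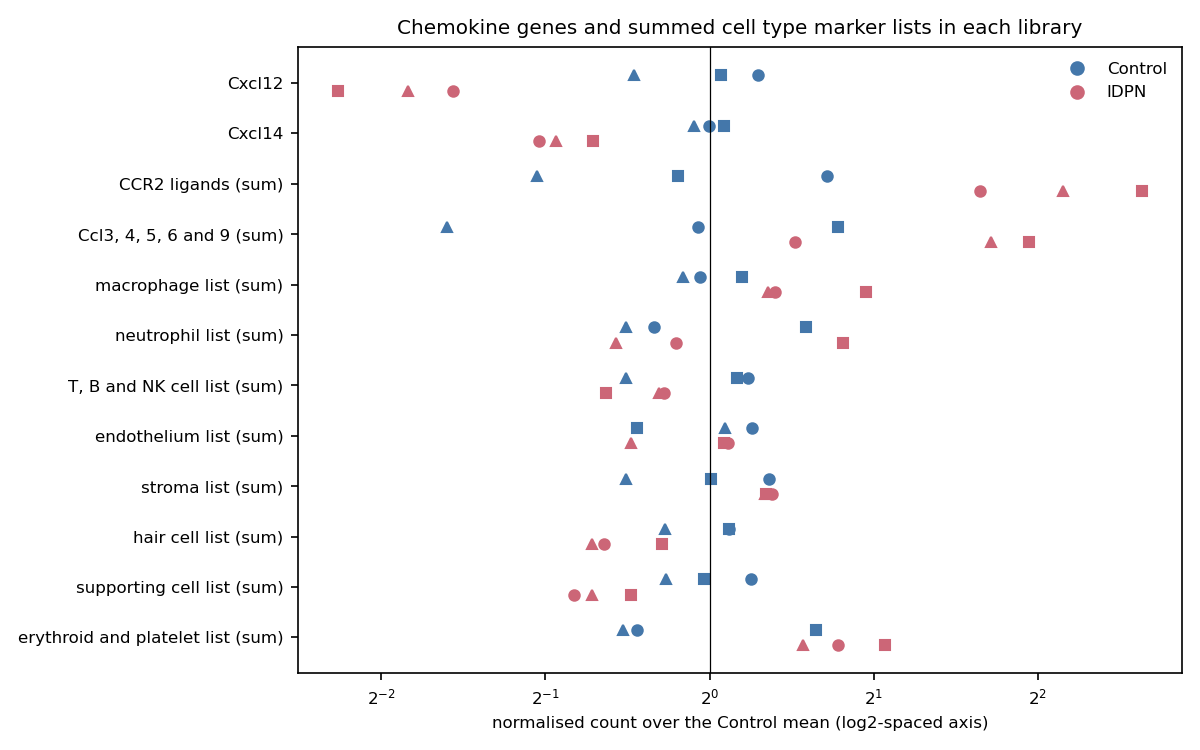
Normalised counts of 2 ligand genes and of summed gene lists, each divided by its Control mean (log2-spaced axis), with Control in blue, IDPN in red and circle, square and triangle for libraries 1, 2 and 3 of a group. The CCR2 ligand sum was higher in every IDPN library than in any Control library. So was the macrophage sum, of which Lyz2 made at least 53.3%. Cxcl12, Cxcl14, the supporting cell sum and the hair cell sum, of which Spp1 made at least 95.8%, were lower.

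Among the ligands of CCR2 and CCR1, Ccl12 and Ccl9 were called higher in IDPN, from a low base. Ccl12 (ENSMUSG00000035352.3, chr11:82101845-82103400) encodes a mouse ligand of CCR2 that attracts monocytes. It had 9, 11 and 8 raw counts in Control 1 to 3 against 47, 67 and 44 in IDPN 1 to 3. Normalised, these were 10.9, 12.7 and 7.12 against 38.9, 67.3 and 41.1, without overlap. The log2-fold change was 2.27 (SE 0.57, DESeq2 Padj = 0.00240), and the edgeR adjusted p was 0.0337. Without IDPN 2 the estimate was 1.98 and the call was lost (DESeq2 Padj = 0.0845).

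Ccl9 (ENSMUSG00000019122.8, chr11:83572919-83578636) encodes a ligand of CCR1 that macrophages and epithelia make. Its raw counts were 2, 11 and 4 in Control and 25, 45 and 36 in IDPN. On the normalised scale it had 2.43, 12.7 and 3.56 in Control 1 to 3 against 20.7, 45.2 and 33.6 in IDPN 1 to 3, again without overlap. The log2-fold change was 2.42 (SE 0.75, DESeq2 Padj = 0.0259). The edgeR adjusted p was 0.0900, which did not pass. DESeq2 also lost the call without Control 1 (Padj = 0.146), Control 3 (0.0888), IDPN 2 (0.239) or IDPN 3 (0.145), with estimates of 2.05 to 3.44 over the 6 fits that left out a library.

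Ccl7, another monocyte attractant, had 8.49, 2.31 and 0.89 normalised counts in Control 1 to 3 against 14.9, 23.1 and 19.6 in IDPN 1 to 3. The groups did not overlap, but the log2-fold change of 2.35 (SE 0.93) did not pass (DESeq2 Padj = 0.122). Of the 22 members 9, among them Ccl12, Ccl9, Ccl7, Cxcl10 and Xcr1, had 10 counts in all 3 IDPN libraries but not in all 3 Control libraries, and so passed the limit through IDPN. Ccl2, which encodes MCP-1, was under that limit, with 7.28, 0 and 0.89 in Control and 4.14, 22.1 and 21.5 in IDPN (log2-fold change 2.59, DESeq2 Padj = 0.210). The CCR2 ligands Ccl2, Ccl7, Ccl8 and Ccl12 summed to 30.3, 16.2 and 8.90 in Control 1 to 3 against 57.9, 114 and 82.1 in IDPN 1 to 3. The mean sum was 18.5 ± 10.9 in Control against 84.8 ± 28.4 in IDPN (SD, n = 3 each), and all IDPN libraries lay above all Control libraries. Ccr2 itself had no more than 18.1 normalised counts in any library (8.49, 0 and 6.23 in Control, 1.66, 18.1 and 6.53 in IDPN, DESeq2 Padj = 0.830).

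For the inflammatory CC ligands Ccl3, Ccl4, Ccl5, Ccl6 and Ccl9, the sum was 24.2 ± 16.8 in Control against 69.2 ± 30.6 in IDPN (SD, n = 3 each). Here IDPN 1, at 34.8, lay below Control 2, at 41.6, so the groups overlapped. Ccl6 had 17.0, 27.7 and 4.45 in Control and 11.6, 41.2 and 41.1 in IDPN (log2-fold change 0.94, DESeq2 Padj = 0.575). Ccl3, Ccl4 and Ccl5 had at most 4 raw counts per library. Ccr1, a receptor for several of them, had 18.2, 25.4 and 7.12 in Control 1 to 3 against 71.2, 53.2 and 15.9 in IDPN 1 to 3. IDPN 3 lay within the Control range, and the log2-fold change of 1.48 (SE 0.65) did not pass (DESeq2 Padj = 0.186).

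These ligands lie in 2 gene clusters on chromosome 11. The first, chr11:82035571-82305690, held Ccl2, Ccl7, Ccl11, Ccl12, Ccl8 and Ccl1. Of its 3 measured members, Ccl7 and Ccl12 were higher in IDPN without overlap. Both of these genes passed the count limit through their IDPN libraries, so nothing is read from their share of the cluster. Ccl11 (eotaxin, an eosinophil attractant) had 4.85, 23.1 and 15.1 in Control and 8.28, 5.02 and 8.40 in IDPN (log2-fold change −0.99, SE 0.87, DESeq2 Padj = 0.646). The second, chr11:83525778-83664683, held Ccl5, Ccl9, Ccl6, Ccl3 and Ccl4.

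**Figure D4:**
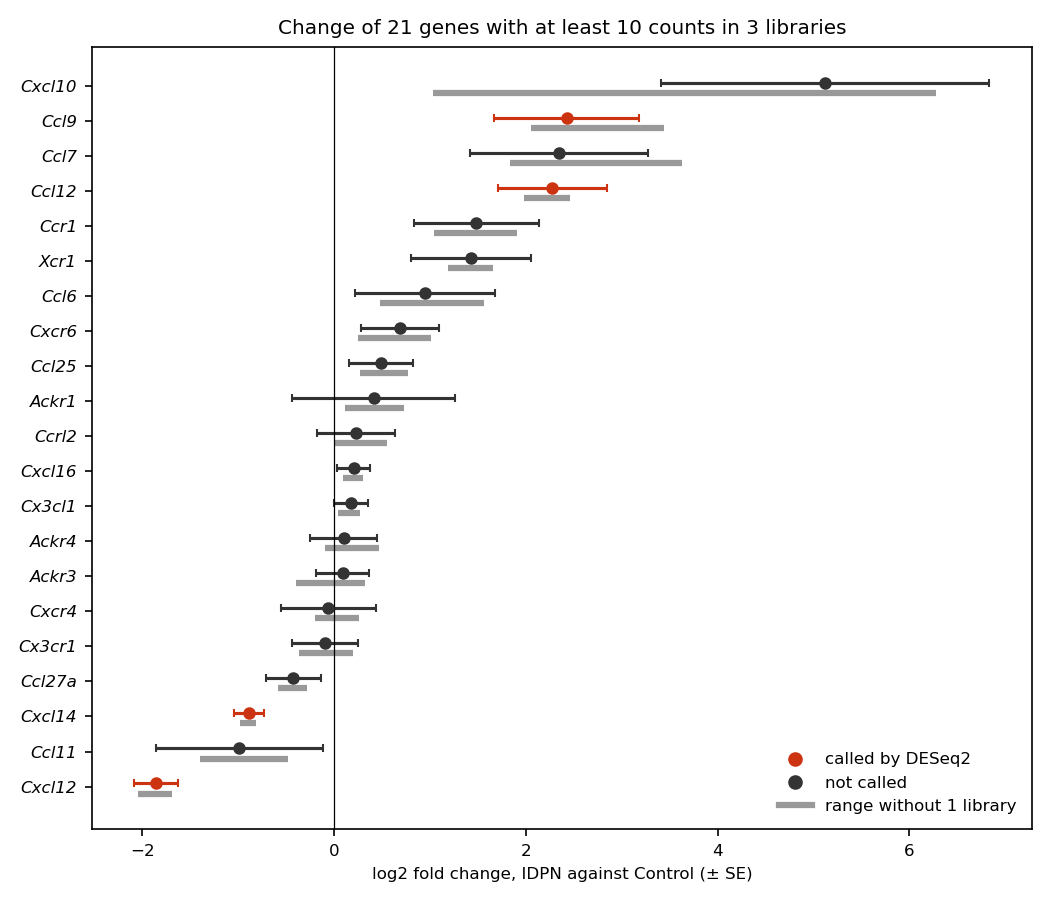
Log2-fold change of IDPN against Control with its SE for 21 genes that reached 10 counts in 3 libraries, in red where called by DESeq2. Grey bars give the range of the estimate when 1 library was left out, which was widest for Cxcl10 (1.03 to 6.27) and crossed 0 for Ackr3, Ackr4, Ccrl2, Cxcr4 and Cx3cr1.

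Over the 22 members, 4 were higher in IDPN with no overlap between groups (Ccl12, Ccl9, Ccl7 and Xcr1) and 2 were lower (Cxcl12 and Cxcl14). Over the 16418 genes that passed the same limit these shares were 11.3% and 11.7%. The 4 higher members all passed the limit through their IDPN libraries, so nothing is read from their number. The median log2-fold change of the 22 was 0.24, and that of the 16418 was 0.013. Their estimates ran from −1.86 for Cxcl12 to 5.12 for Cxcl10, as the plot of log2-fold changes with their errors shows.

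Cxcl10, an interferon-induced ligand of CXCR3, had the largest estimate and the least even values. Its normalised counts were 2.43, 18.5 and 5.34 in Control 1 to 3 against 21.5, 14.1 and 874 in IDPN 1 to 3. IDPN 2 lay below Control 2, so the groups overlapped. The log2-fold change was 5.12 (SE 1.71), for which the Cook's distance filter of DESeq2 gave no p, and the edgeR adjusted p was 0.115. Without IDPN 3 the estimate was 1.03 (DESeq2 Padj = 0.745). Cxcl9, the neighbour of Cxcl10 at chr5:92321347-92348889, had at most 5 raw counts in a library. Their receptor Cxcr3 had 1.21 to 8.08 normalised counts in Control and 2.80 to 8.28 in IDPN.

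Interferon response genes, the class to which Cxcl10 belongs, were called in 1 direction. Of 39 listed genes, 20 were upregulated by DESeq2 and 14 by edgeR. None was downregulated by either, nor had any an unadjusted p under 0.05 in that direction. The list median was 1.33, against 0.013 for all genes. Summed counts were 17941, 18298 and 17344 in Control 1 to 3 against 24906, 40328 and 63977 in IDPN 1 to 3, and IDPN 3 was highest, as for Cxcl10. Irf1, a transcription factor of the response, had 0.90 (DESeq2 Padj = 0.00465, edgeR adjusted p 0.0569). Irf1 lost its call without Control 2 (DESeq2 Padj = 0.0892) or IDPN 3 (0.112). Ifng and Ifnb1, which encode interferons gamma and beta, stood at 0 in all libraries.

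Inducers and targets of NF-kB, with the cytokines that act on it, were called once. Of 42 listed genes, none was upregulated by DESeq2 or edgeR, where 8 and 7 had an unadjusted p under 0.05 in that direction. The list median was 0.41. The 1 called gene was Tlr4, the endotoxin receptor, downregulated at −0.96 (DESeq2 Padj = 0.00431, edgeR adjusted p 0.0492). Nfkbia, an inhibitor and target of NF-kB, had 2219, 3293 and 1782 in Control and 2085, 5169 and 3333 in IDPN (log2-fold change 0.54, DESeq2 Padj = 0.323). Il6, Csf2, Csf3, Sele and Selp stood at 0, and Tnf and Il1b had at most 3.64 and 7.28 normalised counts in any library.

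The neutrophil attractants were near 0. Cxcl1, Cxcl2, Cxcl3, Cxcl5 and Cxcl15 together had 1.60 ± 1.86 normalised counts in Control against 7.06 ± 5.21 in IDPN (SD, n = 3 each), and none reached 10 counts in 3 libraries. Their receptors Cxcr1 and Cxcr2 had 0 and 2 raw counts over the 6 libraries. Neutrophil markers were also low. Of 10, 1 reached 10 counts in 3 libraries, Elane and Ly6g stood at 0, and the list summed to 30.2 to 64.6 in Control and 28.9 to 75.3 in IDPN. None was called by DESeq2 or edgeR, and 0 had an unadjusted p under 0.05.

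Membrane-bound ligands and their receptors did not pass the test. Cx3cl1 had 1327, 1155 and 1166 in Control 1 to 3 against 1331, 1606 and 1174 in IDPN 1 to 3 (log2-fold change 0.17, SE 0.18, DESeq2 Padj = 0.716). Its receptor Cx3cr1, a macrophage and microglia gene, had 195, 97.0 and 131 in Control and 176, 127 and 91.5 in IDPN (log2-fold change −0.10, SE 0.34, DESeq2 Padj = 0.937). The sign of Cx3cr1 turned under total-count scaling, at 0.19. The groups overlapped for both genes. Cxcl16 had 1322, 1195 and 1373 in Control 1 to 3 against 1733, 1453 and 1298 in IDPN 1 to 3 (log2-fold change 0.21, SE 0.17, DESeq2 Padj = 0.624). Opposite-strand exons of Zmynd15 cover 18.3% of its exon bases. The libraries were made without strand, so reads of Cxcl16 may be split between both genes. The CXCL16 receptor Cxcr6 had 127, 58.9 and 109 in Control and 240, 156 and 77.5 in IDPN (log2-fold change 0.68, SE 0.41, DESeq2 Padj = 0.409).

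Xcr1, the receptor by which cross-presenting dendritic cells sense XCL1, had 7.28, 13.9 and 13.3 in Control 1 to 3 against 20.7, 36.1 and 36.4 in IDPN 1 to 3. The groups did not overlap, but the log2-fold change of 1.42 (SE 0.63) did not pass (DESeq2 Padj = 0.187, edgeR adjusted p 0.182). Its ligand Xcl1 stood at 0. Xcr1 lies on chromosome 9 in a run of receptor genes with Ccr9, Cxcr6, Ccr1, Ccr1l1, Ccr3 and Ccr2, of which Cxcr6 and Ccr1 also reached 10 counts in 3 libraries and had groups that overlapped.

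Homeostatic ligands of lymphocytes were mostly low. Ccl25, which draws thymocytes and gut T cells through CCR9, had 135, 104 and 168 in Control 1 to 3 against 217, 109 and 246 in IDPN 1 to 3 (log2-fold change 0.49, SE 0.33, DESeq2 Padj = 0.494). Ccr9 had 6.23 to 7.28 in Control and 2.80 to 22.1 in IDPN. Ccl27a, a skin ligand of CCR10, had 192, 208 and 138 in Control 1 to 3 against 160, 135 and 105 in IDPN 1 to 3 (log2-fold change −0.43, SE 0.29, DESeq2 Padj = 0.491). Its values are less sure, since 32.9% of the 76-base windows of its transcripts also occur in another gene. Ccl19 and Ccl21a, ligands of CCR7, had no more than 10 and 2 raw counts in a library, and Ccr7 had 2 in all. Of their 76-base windows 45.0% and 60.9% also occur in another gene, so their low counts are less sure. The shares were 100% for the copy of Ccl21b and 98.0% for the Ccl27b gene that could be searched, both of which stood at 0, so reads from them may have been given to another gene. Of 16 T, B and NK cell markers 2 reached 10 counts in 3 libraries, Cd79b, Gzma, Ncr1 and Nkg7 stood at 0, and the list summed to 165 to 278 in Control and 153 to 194 in IDPN. Cd79a made 69.4% to 86.3% of this sum in a library. None of the 16 markers was called by DESeq2 or edgeR, with an unadjusted DESeq2 p under 0.05 for 2.

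Among atypical receptors other than Ackr3, no difference passed the test. Ackr4, which scavenges CCL19, CCL21 and CCL25, had 63.1 to 126 in Control and 86.3 to 100 in IDPN (log2-fold change 0.10, DESeq2 Padj = 0.937). Ccrl2, which presents chemerin, had 58.7 to 101 in Control and 46.2 to 121 in IDPN (log2-fold change 0.23, DESeq2 Padj = 0.858). Ackr1, a receptor of erythroid cells and venular endothelium, had 4.62 to 12.1 in Control and 9.33 to 14.1 in IDPN (log2-fold change 0.41, DESeq2 Padj = 0.885). Exons of Cadm3 cover 25.7% of the Ackr1 exon bases, so its reads may be split between both genes. The erythroid and platelet list, of which 4 of 9 markers were upregulated (Hbb-bs, Hba-a1, Hba-a2 and Alas2), summed to 16362 to 36868 in Control and 34937 to 49281 in IDPN. edgeR called 0 of these 4, with adjusted p of 0.110 to 0.185. The 3 globin genes lost their DESeq2 call when any library other than Control 2 was left out (DESeq2 Padj = 0.274 for Hbb-bs without Control 1), and Alas2 lost it without Control 1, Control 2, IDPN 1 or IDPN 2.

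The summed macrophage markers, of which Lyz2 made at least 53.3%, were higher in every IDPN library, as were Ccl12 and Ccl9. Of 20 listed genes, all with counts, 1 was called, Lyz2 (lysozyme, log2-fold change 0.77, DESeq2 Padj = 0.00401, edgeR adjusted p 0.0708), and 9 were higher without overlap. The list median was 0.55, or 0.34 without IDPN 2. Summed counts were 6705 to 8594 in Control and 9610 to 14550 in IDPN. Lyz2 made 53.3% to 62.8% of this sum in a library. The other 19 markers summed to 2970 to 3997 in Control and 3784 to 5418 in IDPN, so without Lyz2 the groups overlapped. Csf1r, the receptor on which macrophages depend, had 717, 759 and 571 in Control and 622, 770 and 638 in IDPN (log2-fold change −0.01, DESeq2 Padj = 0.988). As ratios chosen after the values were seen, Ccl12 stood at 1.35 ± 0.250 per 1000 macrophage-list counts in Control against 4.28 ± 0.343 in IDPN (SD, n = 3 each). Per 100 Csf1r counts it stood at 1.48 ± 0.216 and 7.14 ± 1.39 (SD, n = 3 each). Ccl9 stood at 0.781 ± 0.611 and 2.90 ± 0.724 per 1000 macrophage-list counts (SD, n = 3 each). Both genes were picked for being higher in IDPN, so nothing is read from these ratios. The part of macrophages in the higher Ccl12 and Ccl9 was not tested.

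Signalling partners and modifiers of chemokines were called in both directions. Of 43 listed genes 35 reached 10 counts in 3 libraries, 2 were upregulated and 2 downregulated, with a median of 0.23, and Cmklr1, a chemerin receptor, stood at 0. Elmo1, which with DOCK2 couples chemokine receptors to RAC, had 2044, 1844 and 1980 in Control and 1169, 928 and 811 in IDPN (log2-fold change −1.01, SE 0.18, DESeq2 Padj = 2.42e-06, edgeR adjusted p 0.00763). Rarres2, which encodes the chemoattractant chemerin, had 889, 1205 and 914 in Control and 570, 554 and 560 in IDPN (log2-fold change −0.84, SE 0.19, DESeq2 Padj = 3.84e-04, edgeR adjusted p 0.0189). Elmo1 and Rarres2 kept their calls without any 1 library. Dock2 itself was low, with 13.3, 21.9 and 8.01 in Control and 16.6, 23.1 and 11.2 in IDPN (log2-fold change 0.24, DESeq2 Padj = 0.925).

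The upregulated partners were less steady. Dpp4, the protease that trims and inactivates CXCL12 and other chemokines, had 656, 575 and 753 in Control and 1236, 1007 and 901 in IDPN (log2-fold change 0.66, SE 0.19, DESeq2 Padj = 0.0156, edgeR adjusted p 0.0632). Its call was lost without Control 1 (DESeq2 Padj = 0.0843), Control 2 (0.151) or IDPN 1 (0.155). Rgs16, which shortens chemokine receptor signalling, had 54.6, 68.1 and 83.6 in Control and 116, 234 and 116 in IDPN (log2-fold change 1.17, SE 0.36, DESeq2 Padj = 0.0265, edgeR adjusted p 0.110). Rgs16 lost its call without Control 1 (DESeq2 Padj = 0.177), Control 2 (0.130) or IDPN 2 (0.341). Both genes had no overlap between the groups. Pf4, a platelet chemokine that the symbol rule does not take in, had 54.6, 55.4 and 66.7 in Control and 114, 111 and 90.5 in IDPN (log2-fold change 0.84, DESeq2 Padj = 0.115).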

How the data were processed

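SMART-seq2 libraries were made from 6 to 11 ng of total RNA, with 8 cycles of cDNA and 12 of library amplification, without molecular identifiers and without strand. Per the study's methods, the authors aligned reads with STAR 2.5.3a to GRCm38 and quantified genes with RSEM 2.3.0. The deposited values are RSEM expected counts, given as whole numbers, unnormalised and unfiltered, for 52636 genes.

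All genes were fitted with DESeq2 1.42.0 (Wald test, median-of-ratios factors, no covariate, 1 batch) in R 4.3.3, with Padj < 0.05 and a fold change above 1.5. Adjustment was over all genes. edgeR 4.0.16 (quasi-likelihood, TMM, filterByExpr) was the first alternative. The others were TMM or total-count factors, count filters, independent or Cook's filtering off, protein-coding genes, a test against a fold change of 1.5, and each library left out. The Cook's filter left 40 genes, of which Cxcl10 was a member, without a p. Normalised counts are counts over size factors. The code was tested on simulated data.

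Members and lists were chosen with earlier results of these data known. Members were described in full if called by DESeq2, edgeR or without a library, if groups did not overlap, or at a mean of at least 100 normalised counts. Exact permutation of 3 against 3 libraries cannot go below p = 0.10. Replicates differed by far more than sampling noise (chi-square per degree of freedom 37.3 to 145). Replicate numbers follow accession order. Gene lengths and coordinates came from GENCODE M21 (GRCm38), a later release than the authors' M15, and promoters from RefSeq (GRCm38.p6). Protein sequences were not used here, and values of 1 measured member and of some listed genes are not reported here.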

Additional observations from a re-analysis of the deposited data

How the results depend on the processing

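Ccl12 and Ccl9 were both called higher with TMM or total-count factors, with the count filter, among protein-coding genes and with independent filtering off. edgeR called 1 (Ccl12). The DESeq2 test against a fold change of 1.5 called 0 (Ccl12 Padj 0.262, Ccl9 0.817), although both of these had an unadjusted p under 0.05 in it. Leaving out 1 library gave 1 to 3 upregulated members, with 1 left without Control 1, Control 3, IDPN 2 or IDPN 3. Without IDPN 2 that 1 was Cxcl10 (5.68, DESeq2 Padj = 0.0260). Cxcl10 was also called without IDPN 1 (5.67, DESeq2 Padj = 0.0375) and with the Cook's filter off (DESeq2 Padj = 0.0463). Each of these fits kept IDPN 3, the library with 874 normalised counts of Cxcl10. Without IDPN 3 the Cxcl10 estimate was 1.03 (DESeq2 Padj = 0.745), and fits without a Control library gave it no Padj. Cxcl12 and Cxcl14 were called lower under every alternative run except the test against a fold change of 1.5, where 1 (Cxcl12) remained. The 6 members whose groups did not overlap (23.1% of all genes did not) became 8 with total-count factors (23.9% of all genes), 8 with a limit of 1 count in 3 libraries (20.8%), and 7 to 10 without a library (30.6% to 41.0%), where smaller groups overlap less easily. Of the 14 members described in full, the estimate changed sign in Cx3cr1 (0.19 with total-count factors, −0.37 to 0.20 without a library) and in Ackr3 (−0.40 to 0.32 without a library). The median over the members with at least 10 counts in 3 libraries was 0.54 with total-count factors and 0.68 with a limit of 1 count. The levels per longest transcript shared 9 of the 10 highest members with the levels per merged exon. The causes of these changes were not tested. No paired analysis was possible because the labels carry no replicate numbers.

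Many ligands had few counts, so a difference in those near 0 was not detectable at this depth. With 3 animals a group, a Padj above the threshold does not show that levels were equal.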
